A study of Homo sapiens with 9 samples.

Results

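The 44 genes described here encode the machinery that carries secretory vesicles to the plasma membrane and fuses them with it. No measured value enters the rule, which lists them by name, but the list was chosen with earlier results of these data known. It holds the plasma membrane syntaxins, the SNAP family, the VAMPs, syntaxin-binding proteins, the UNC13 priming factors and the SNARE disassembly factors. The synaptotagmins, the synaptotagmin-like proteins, the RAB3 and RAB27 GTPases and the exocyst complete it. All 44 were among the 36785 genes of the deposited table. RNA sequencing was done on SKOV3 cells, a human ovarian cancer line long in use, in 3 groups of 3 libraries that had all undergone lentiviral transduction. The groups were sh1 (genotype label STXBP6 knockdown_1), sh3 (STXBP6 knockdown_3) and shNC (NC). The sources used here give neither the hairpin sequences nor the cultures behind each replicate, so a p-value reflects only the spread between libraries, which may be technical.

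Fusion of a vesicle with the plasma membrane is driven by SNARE proteins: a VAMP on the vesicle zips together with a syntaxin and a SNAP protein on the target membrane. RAB3 and RAB27, small GTPases on secretory granules, recruit effectors such as the synaptotagmin-like proteins that link a granule to the cell cortex, and the exocyst, a complex of EXOC subunits, tethers vesicles before fusion. Syntaxin-binding proteins and UNC13 proteins prepare the SNAREs, synaptotagmins couple fusion to calcium, and NSF with its adaptors takes used SNARE complexes apart. STXBP6, also known as amisyn, carries a VAMP-like SNARE domain that binds syntaxin and SNAP proteins, and is described as a brake on fusion.

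The libraries held 57654447 to 69264400 counts. In this text a level in CPM is the count scaled to the TMM-adjusted library total (edgeR's cpm), used to compare libraries for 1 gene, and a level in FPKM is the authors' deposited value, scaled also by gene length and used to compare genes. A change is a log2 fold change, first group over second, from edgeR's quasi-likelihood test, and called genes are those with a Benjamini-Hochberg adjusted p under 0.05, taken over the 21296 genes that passed a filter on low counts. The pairs that include shNC replicate 3 differed more than the other replicate pairs, with chi-square values per degree of freedom of 17 and 18.9 against 9.01 to 11, so this library, used in both comparisons with shNC, stood apart. In these bulk libraries fewer cells of a type and less RNA per cell cannot be told apart. Of 16 listed markers of ovarian cancer lines 12 reached a mean of 1 FPKM, led by ERBB2, a receptor kinase, at 500 ± 17.8 FPKM in sh1, 853 ± 22.6 in sh3 and 910 ± 64.6 in shNC (SD, n = 3 each). The surface antigen MUC16 reached at most 0.0191 FPKM and the adhesion protein CDH1 at most 0.418 FPKM in any library.

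STXBP6, the gene named in the knockdown labels (ENSG00000168952, chromosome 14, 24809454 to 25050147, minus strand, GRCh38), had 7, 4 and 26 counts in the sh1 libraries, 20, 31 and 18 in the sh3 libraries and 4, 0 and 15 in the shNC libraries. All 9 values were close to the bottom of the measured range, and the sh3 libraries lay above all 3 shNC libraries while those of sh1 overlapped them. As CPM on plain library totals this was 0.186 ± 0.166 in sh1, 0.366 ± 0.128 in sh3 and 0.107 ± 0.136 in shNC (SD, n = 3 each), where 3 counts are worth 0.0433 to 0.052. By an exact permutation test, two-sided, the comparison of sh1 with shNC had p = 0.5 and that of sh3 with shNC had p = 0.1, which is the smallest value that 3 against 3 libraries allow. For the 6 hairpin libraries together against the 3 of shNC the exact permutation test gave p = 0.119, with 0.0119 the smallest possible. Without shNC replicate 3 the sh3 level was called higher than shNC, with a log2 change of 3.54 (edgeR, adjusted p = 0.046), against 1.81 (adjusted p = 0.23) with all libraries. A lower STXBP6 level was not detectable at this depth, so the gene does not check the knockdown labels, and sh1 and sh3 stand below for the libraries so labelled.

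The 44 genes spanned the whole range from abundant to barely detected, and 33 of them had a mean of at least 1 FPKM in every group. VAMP3, the widely expressed vesicle SNARE also called cellubrevin, was the highest at 74.0 FPKM over the 9 libraries. It was followed by VAMP7 at 21.8, EXOC7 at 21.2, VAMP8 at 17.7 and STX2 at 16.3 FPKM. At the bottom stood STXBP6 at 0.0242 and SNAP25, the neuronal target SNARE, at 0.00504 FPKM, with STX19 at 0.0783 FPKM above them. STX19 had 0 to 12 counts per library and was the only 1 of the 44 that did not pass the filter on low counts. The mean FPKM of the 44 genes summed to 315.65 in sh1, 327.68 in sh3 and 335.57 in shNC, a description without a test.

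**Figure D1:**
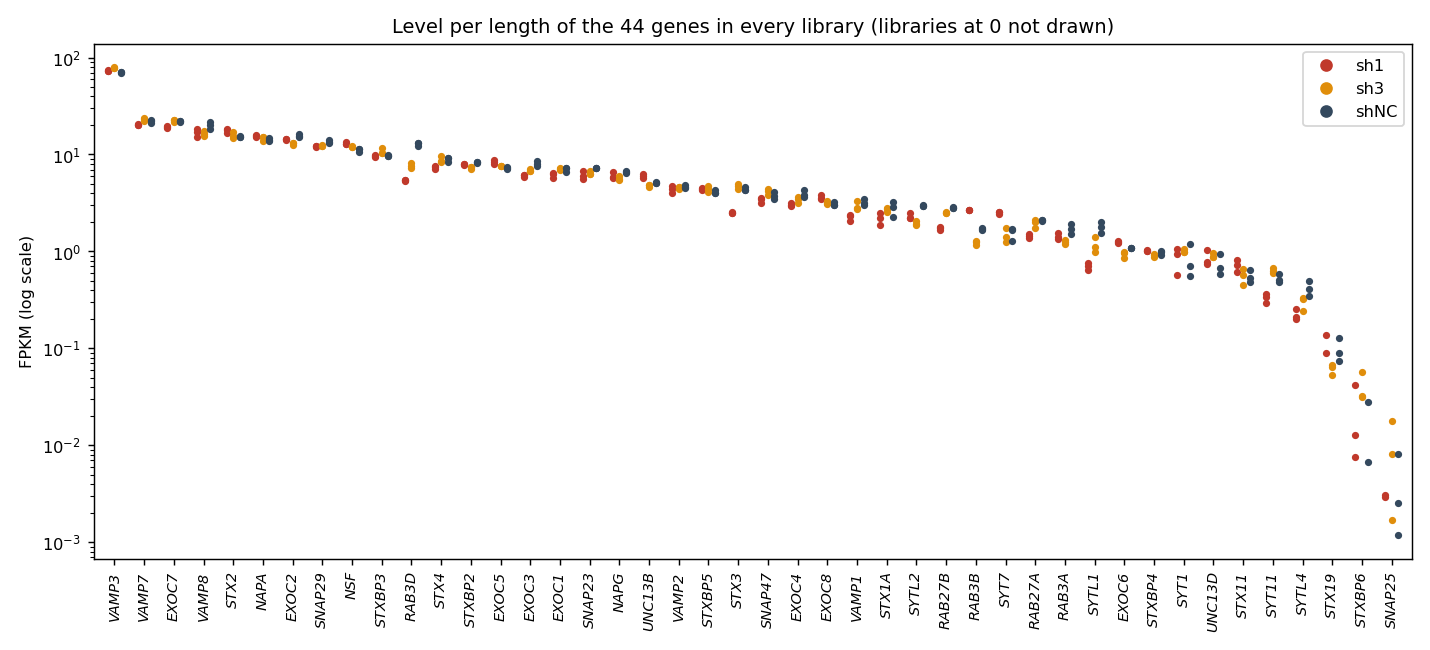
Level of each of the 44 genes in FPKM on a logarithmic axis, 1 point per library of sh1, sh3 and shNC (n = 3 each), with libraries at 0 not drawn. VAMP3 leads at 74.0 FPKM over the 9 libraries and SNAP25 is lowest at 0.00504 FPKM.

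In sh1 against shNC 25 of the 43 tested genes were called, 58.1% of them, where 38.7% of all tested genes were called in that comparison. Of these, 9 were higher (20.9%, beside 19.9% of all tested genes) and 16 were lower (37.2%, beside 18.8%). In sh3 against shNC 15 were called, or 34.9%, where 26.9% of all tested genes were. Of these, 2 were higher (4.65%, beside 14.4% of all tested genes) and 13 were lower (30.2%, beside 12.4%). Without shNC replicate 3 the members called were 11 higher and 17 lower in sh1, and 3 higher and 12 lower in sh3. Most of these changes were small: 9 called genes in sh1 and 3 in sh3 had an absolute log2 change of at least 0.5, which is 20.9% and 6.98% of the tested members beside 15.3% and 7.99% of all tested genes. The median log2 change of the 43 genes was -0.09 in sh1 and -0.04 in sh3, beside -0.02 and -0.01 over all tested genes, and their median absolute log2 change of 0.25 in sh1 and 0.15 in sh3 stood beside 0.30 and 0.22 over all tested genes.

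With both hairpins 8 of the 43 genes were called in one direction, or 18.6%, and 19.1% of all tested genes were, so this count is at the background. VAMP3 was higher with both, and RAB3D, RAB27B, SYTL1, SYTL2, EXOC3, EXOC4 and SNAP29 were lower with both. The 7 lower genes are 16.3% of the members beside 8.43% of all tested genes, and the 1 higher gene is 2.33% beside 10.6%. RAB3B alone was called in opposite directions, as were 1.23% of all tested genes. Both comparisons share the shNC libraries, so these overlaps are no independent repeats. The 9 members called in none of the 3 comparisons were SNAP25, STX11, STX1A, STXBP4, STXBP5, STXBP6, SYT1, UNC13D and VAMP2, and 51.8% of all tested genes were called in none.

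**Figure D2:**
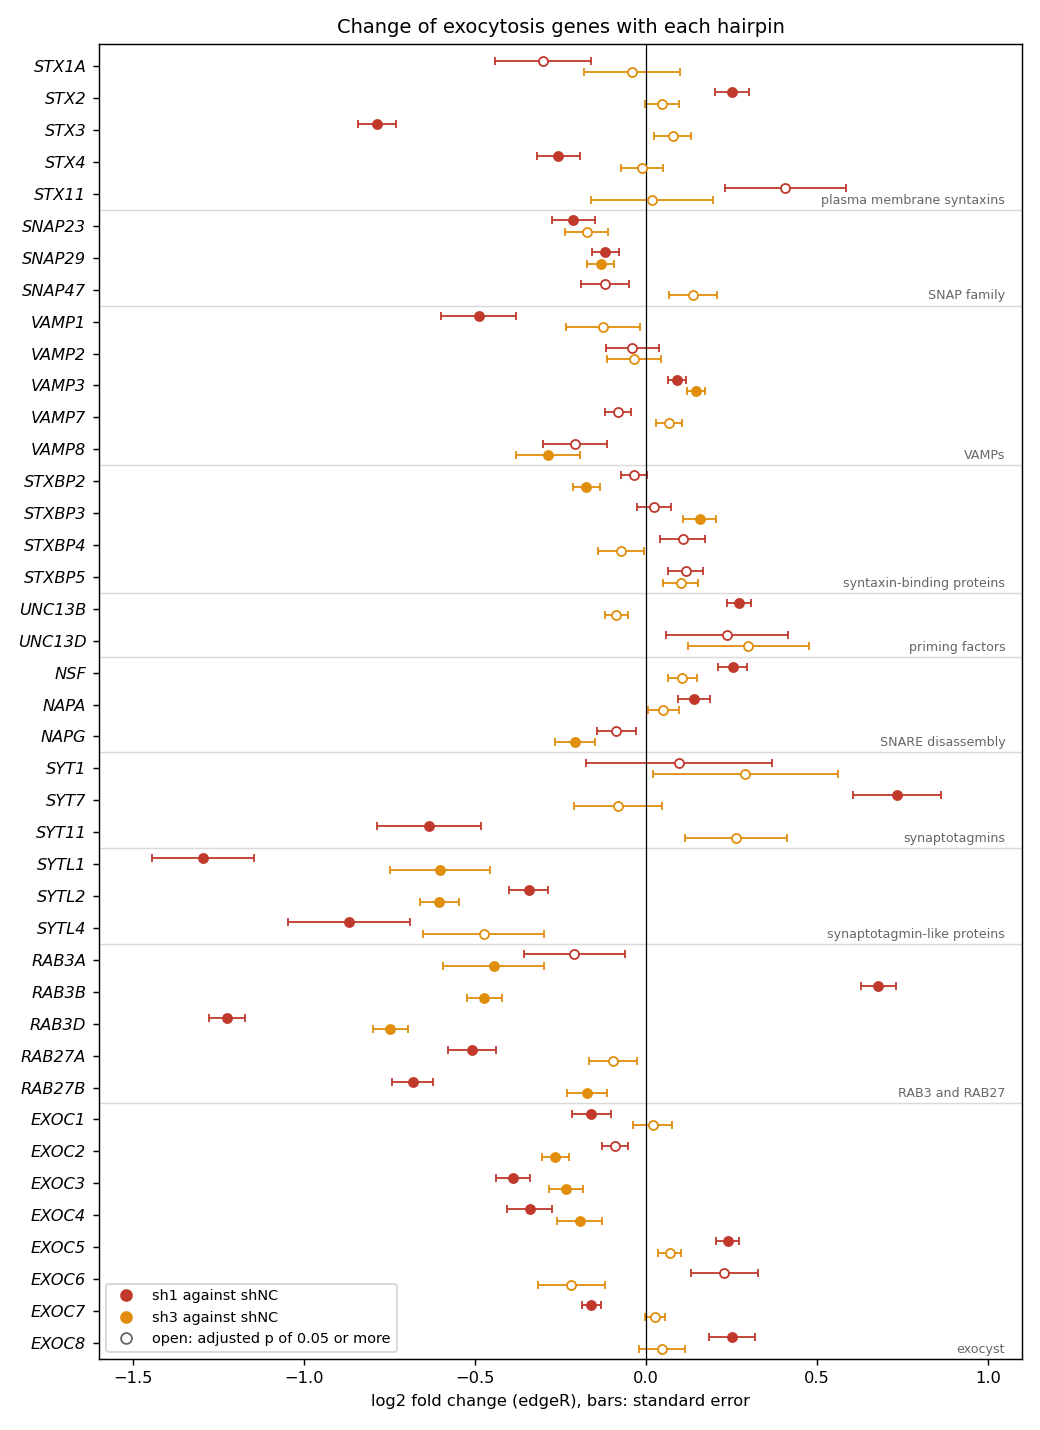
Log2 fold change (horizontal axis) of each tested gene in sh1 against shNC and in sh3 against shNC, with bars of 1 standard error from edgeR and open points where the adjusted p was 0.05 or more. RAB3D at -1.23 and SYTL1 at -1.30 lie farthest to the left in sh1, and RAB3B lies at 0.68 in sh1 and -0.47 in sh3; STXBP6 and SNAP25, with standard errors near or over 1, and the untested STX19 are left out.

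Among the granule GTPases, RAB3D and RAB27B were lower with both hairpins, RAB27A was lower in sh1, and RAB3B was higher in sh1 and lower in sh3. The stretches 250 bases before the RefSeq start of 4 genes are printed because RAB3D and the effector gene SYTL1 fell with both hairpins, RAB27B fell in sh1 with a weak call in sh3 that most alternatives lost, and RAB3B moved in opposite directions. They are read 5′ to 3′ on the gene's strand of GRCh38.p14, and capitals mark matches to GGGCGG (the GC box), TGANTCA (the AP-1 motif), CACGTG (the E-box) or CCAAT on either strand. RAB3D lies at chr19:11339658-11339907 (minus), SYTL1 at chr1:27341772-27342021 (plus), RAB27B at chr18:54717607-54717856 (plus) and RAB3B at chr1:51990701-51990950 (minus).
RAB3D: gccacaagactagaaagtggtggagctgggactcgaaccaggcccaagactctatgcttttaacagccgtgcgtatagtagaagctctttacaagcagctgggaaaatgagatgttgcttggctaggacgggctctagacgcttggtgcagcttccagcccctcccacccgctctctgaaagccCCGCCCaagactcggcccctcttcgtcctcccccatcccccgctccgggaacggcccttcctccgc
SYTL1: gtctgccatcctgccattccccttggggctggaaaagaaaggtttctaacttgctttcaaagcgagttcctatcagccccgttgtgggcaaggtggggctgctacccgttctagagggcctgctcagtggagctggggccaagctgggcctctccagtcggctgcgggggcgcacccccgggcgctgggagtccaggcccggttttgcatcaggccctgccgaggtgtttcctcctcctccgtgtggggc
RAB27B: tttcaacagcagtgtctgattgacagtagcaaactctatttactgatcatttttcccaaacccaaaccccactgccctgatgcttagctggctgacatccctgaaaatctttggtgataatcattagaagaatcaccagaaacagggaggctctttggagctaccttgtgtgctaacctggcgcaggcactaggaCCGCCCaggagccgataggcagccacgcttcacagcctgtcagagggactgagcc
RAB3B: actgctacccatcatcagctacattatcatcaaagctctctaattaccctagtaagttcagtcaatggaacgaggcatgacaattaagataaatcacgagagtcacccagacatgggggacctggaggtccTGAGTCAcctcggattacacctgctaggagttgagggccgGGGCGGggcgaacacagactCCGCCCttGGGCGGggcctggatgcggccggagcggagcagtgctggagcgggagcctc
The RAB3D and RAB27B stretches each hold 1 GC box, that of RAB3B holds 3 GC boxes and 1 AP-1 motif, and that of SYTL1 holds no match. RAB27B has a second RefSeq entry at chr18:54828227-54828476 (plus), 110617 bases from the deposited start and not printed here, which holds 1 AP-1 motif and 0 GC boxes. SYTL2, which also fell with both hairpins, was looked up too but had no RefSeq promoter entry to print. Of 35116 RefSeq promoter entries of 250 bases 42.6% hold a GC box, 6.57% an AP-1 motif, 6.34% an E-box and 32% a CCAAT match. Of the 39 members with an entry, 29, 3, 5 and 12 hold them in that order. A member counts if any of its entries holds the match, whereas the shares are over entries, so the 2 are not in like units. The RefSeq start of RAB3D lies 6613 bases from the start in the deposited table, while those of SYTL1, RAB27B and RAB3B lie 2, 3 and 0 bases from it. These matches are a description of letters and say nothing about binding in these cells.

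RAB3D (ENSG00000105514, chromosome 19, 11322068 to 11346270, minus strand), a RAB3 of exocrine and other secretory granules, had 25.7, 26.1 and 26.5 CPM in sh1, 36.3, 38.3 and 34.5 in sh3 and 62.3, 57.8 and 63.0 in shNC. The 3 groups did not overlap, with sh1 lowest and shNC highest. The level fell by 1.23 ± 0.05 on the log2 scale in sh1 (SE, 2.34-fold lower, adjusted p = 1.3e-08) and by 0.75 ± 0.05 in sh3 (1.68-fold lower, adjusted p = 1.2e-06). The sh3 libraries were above those of sh1 by 0.48 (adjusted p = 5.1e-05). In the GENCODE 29 annotation TMEM205, on the same strand, and CCDC159, on the opposite one, each share 144 of the 4417 exon bases of RAB3D, or 3.26%, and the sources used here do not say whether reads were counted by strand. TMEM205 had a log2 change of -0.28 in sh1 (adjusted p = 0.0051) and -0.15 in sh3 (adjusted p = 0.14).

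RAB3B (ENSG00000169213, chromosome 1, 51907956 to 51990700, minus strand), a close relative of RAB3D on secretory granules, had 37.8, 38.1 and 37.6 CPM in sh1, 17.4, 16.3 and 17.4 in sh3 and 23.2, 24.3 and 23.6 in shNC. The groups again did not overlap, but here sh1 was the highest and sh3 the lowest. The log2 change was 0.68 ± 0.05 in sh1 (1.60-fold higher, adjusted p = 8.5e-07) and -0.47 ± 0.05 in sh3 (1.39-fold lower, adjusted p = 3.8e-05). In sh3 against sh1 it was -1.15 ± 0.05 (2.22-fold lower, adjusted p = 6e-08). RAB3A, the neuronal RAB3, was low, with 2.86 ± 0.178 CPM in sh1, 2.43 ± 0.121 in sh3 and 3.30 ± 0.388 in shNC (SD, n = 3 each). Its log2 change was -0.21 in sh1 (adjusted p = 0.30) and -0.45 in sh3 (adjusted p = 0.044), and the sh3 call was lost in 11 of 15 alternative settings, among them the removal of any 1 library other than shNC replicate 3. RAB3A lies in a locus shared with MPV17L2 on the opposite strand, which had a mean of 850.9 counts where RAB3A had 181.3.

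RAB27A (ENSG00000069974, chromosome 15, 55202966 to 55319113, minus strand), the GTPase of lysosome-related and secretory granules, had 17.3, 17.97 and 19.0 CPM in sh1, 21.7, 25.0 and 25.6 in sh3 and 25.7, 26.0 and 25.5 in shNC. The sh1 libraries lay below all others, while sh3 overlapped shNC. The log2 change was -0.51 ± 0.07 in sh1 (adjusted p = 0.00011) and -0.10 ± 0.07 in sh3 (adjusted p = 0.36). PIGB and PIGBOS1 share 154 and 183 of its 5605 exon bases. RAB27B (ENSG00000041353, chromosome 18, 54717860 to 54895516, plus strand), the second RAB27 isoform, had 13.9, 13.8 and 13.3 CPM in sh1, 19.4, 19.8 and 19.2 in sh3 and 21.7, 22.1 and 22 in shNC. All 3 groups stood apart, shNC highest. It fell by 0.68 ± 0.06 in sh1 (adjusted p = 2.6e-06) and by 0.17 ± 0.06 in sh3 (adjusted p = 0.048). The sh3 call was lost in 14 of 15 alternative settings, among them the removal of any 1 of the 9 libraries, and the call in sh1 in none.

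**Figure D3:**
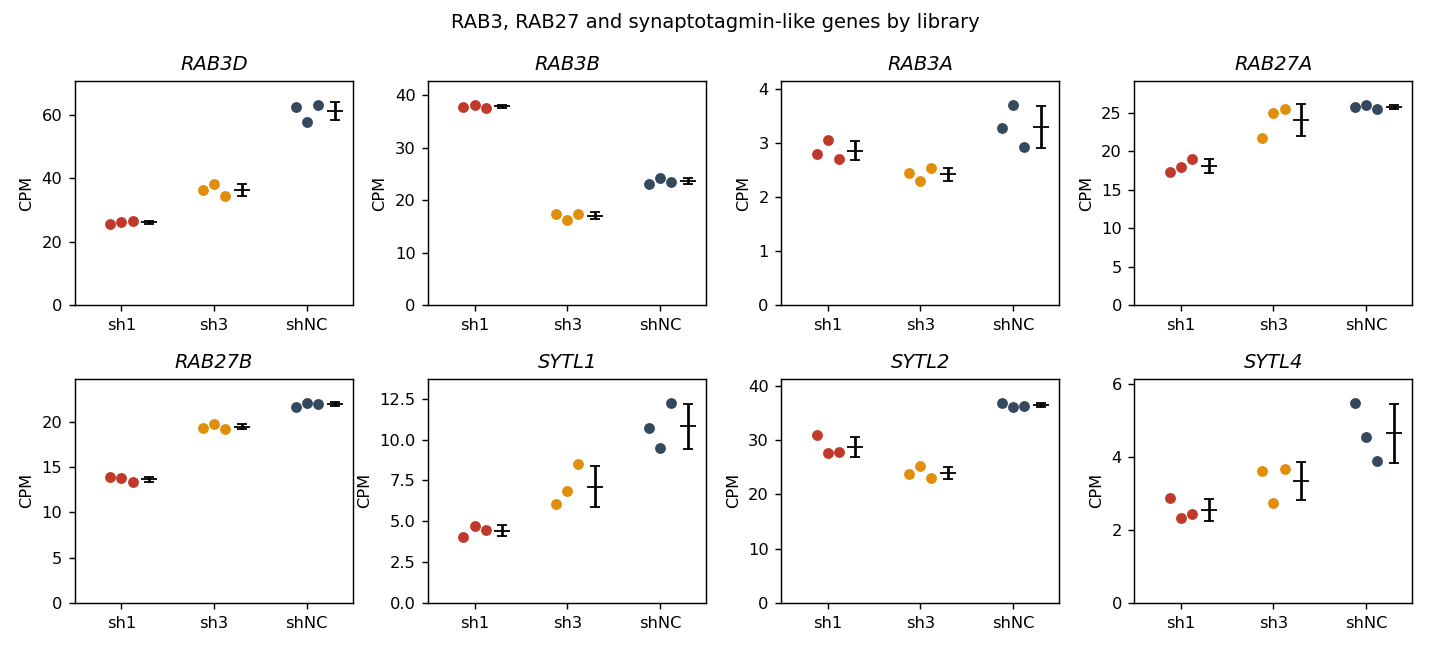
Level in CPM of the RAB3, RAB27 and synaptotagmin-like genes in each library of sh1, sh3 and shNC, with the group mean and SD beside the points (n = 3). RAB3D averages 26.1 CPM in sh1, 36.3 in sh3 and 61.1 in shNC, whereas RAB3B averages 37.9, 17.0 and 23.7 CPM in the same order.

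Per length, the 5 RAB3 and RAB27 genes summed to 12.7 ± 0.12 FPKM in sh1, 14.6 ± 0.366 in sh3 and 21.2 ± 0.341 in shNC (SD, n = 3 each). The RAB3 part was 9.52 FPKM in sh1, 10.1 in sh3 and 16.3 in shNC, so its sum in sh3 stood close to that in sh1. Its makeup did not: RAB3D made up 56.7% of the RAB3 sum in sh1, 75.5% in sh3 and 79.0% in shNC, and RAB3B made up 28.2% in sh1, 12.2% in sh3 and 10.5% in shNC. The RAB27 pair summed to 3.16 FPKM in sh1, 4.47 in sh3 and 4.93 in shNC. These sums and shares are descriptions and were not tested.

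**Figure D4:**
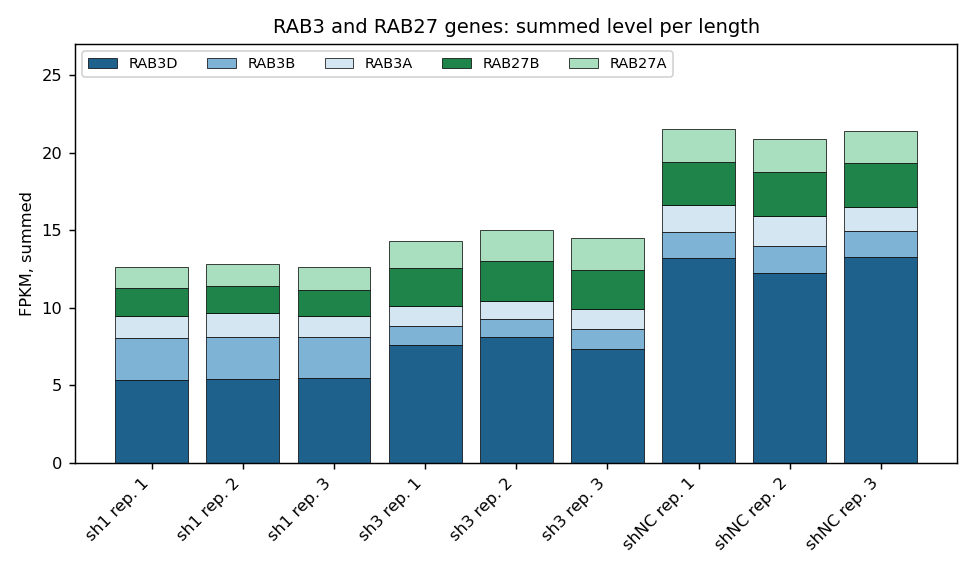
Summed FPKM of RAB3A, RAB3B, RAB3D, RAB27A and RAB27B in each library of sh1, sh3 and shNC, stacked by gene. The stack averages 12.7 FPKM in sh1, 14.6 in sh3 and 21.2 in shNC, and the RAB3D layer is the thickest in every library.

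All 3 synaptotagmin-like proteins on the list, which bind RAB27 and bring granules to the plasma membrane, were lower in sh1. SYTL1 and SYTL2 were lower in sh3 too. Over all tested genes 18.8% were lower in sh1 and 12.4% in sh3. SYTL1 (ENSG00000142765, chromosome 1, 27342020 to 27353937, plus strand) had 4.05, 4.73 and 4.44 CPM in sh1, 6.06, 6.84 and 8.48 in sh3 and 10.7, 9.50 and 12.3 in shNC. The 3 groups did not overlap, and the spread within sh3 and shNC was wide for so low a level. It fell by 1.30 ± 0.15 in sh1 (2.45-fold lower, adjusted p = 2.5e-05) and by 0.60 ± 0.15 in sh3 (1.52-fold lower, adjusted p = 0.0088).

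SYTL2 (ENSG00000137501, chromosome 11, 85694224 to 85811159, minus strand), the most abundant of the 3, had 30.8, 27.6 and 27.7 CPM in sh1, 23.6, 25.2 and 23.1 in sh3 and 36.8, 36.1 and 36.3 in shNC. It differed from RAB3D and SYTL1 in its order: sh3 was lowest and sh1 lay between, with no overlap. The fall was 0.34 ± 0.06 in sh1 (log2 change -0.34, adjusted p = 0.00045) and 0.61 ± 0.06 in sh3 (log2 change -0.61, adjusted p = 1.3e-05). SYTL4, also called granuphilin, had 2.88, 2.33 and 2.43 CPM in sh1, 3.62, 2.74 and 3.68 in sh3 and 5.49, 4.57 and 3.90 in shNC. No hairpin library reached the lowest shNC library, though sh3 replicates 1 and 3 came near it. SYTL4 had a log2 change of -0.87 ± 0.18 in sh1 (adjusted p = 0.0021) and -0.48 ± 0.18 in sh3 (adjusted p = 0.069), which was not called except without shNC replicate 3. The 3 genes summed to 3.23 ± 0.144 FPKM in sh1, 3.43 ± 0.204 in sh3 and 5.18 ± 0.218 in shNC.

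The other 2 genes of this family were not among the 44 and are named after their values were seen. SYTL5 was lower in sh1 while SYTL3 was higher there, and neither was called in sh3. SYTL3 averaged 14.5 CPM in sh1, 10.5 in sh3 and 10.4 in shNC, with a log2 change of 0.48 in sh1 (adjusted p = 0.00078) and 0.02 in sh3 (adjusted p = 0.92). SYTL5 averaged 7.19 CPM in sh1, 25.1 in sh3 and 20.2 in shNC, with a log2 change of -1.49 in sh1 (adjusted p = 5.1e-06) and 0.31 in sh3 (adjusted p = 0.12). Of the 5 genes of the family, SYTL1 and SYTL2 were lower with both hairpins, and SYTL4 and SYTL5 were called lower in sh1 only.

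Of the 3 synaptotagmins among the 44 genes, SYT7 rose and SYT11 fell in sh1, and neither was called in sh3. SYT7 (ENSG00000011347, chromosome 11, 61515313 to 61581148, minus strand), a slow, high-affinity calcium sensor of granule and lysosome exocytosis, had 20.3, 21.4 and 21.5 CPM in sh1, 10.3, 11.6 and 14.1 in sh3 and 13.9, 13.7 and 10.5 in shNC. The sh1 libraries stood above all others, and sh3 and shNC overlapped. The log2 change was 0.73 ± 0.13 in sh1 (adjusted p = 0.00066), -0.08 in sh3 (adjusted p = 0.71) and -0.82 ± 0.13 in sh3 against sh1 (adjusted p = 0.00064). SYT11, a synaptotagmin that does not bind calcium, had 1.93, 2.09 and 1.71 CPM in sh1, 3.82, 3.39 and 3.47 in sh3 and 2.73, 3.28 and 2.89 in shNC. It was lowest in sh1 without overlap, and its log2 change was -0.64 ± 0.15 in sh1 (adjusted p = 0.0056), 0.26 in sh3 (adjusted p = 0.24) and 0.90 ± 0.15 in sh3 against sh1 (adjusted p = 0.0011). SYT1, the fast calcium sensor of neurons, averaged 6.07 ± 1.82 CPM in sh1, 6.95 ± 0.246 in sh3 and 5.69 ± 2.31 in shNC, and neither change passed the test (adjusted p = 0.83 in sh1 and 0.50 in sh3).

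Of the 5 tested plasma membrane syntaxins 1 was higher and 2 were lower in sh1, beside 19.9% and 18.8% of all tested genes. None was called in sh3 at an adjusted p under 0.05, where 26.9% of all tested genes were. STX3 (ENSG00000166900, chromosome 11, 59713456 to 59805882, plus strand), the apical syntaxin of epithelial cells, had 20.2, 20.6 and 20.2 CPM in sh1, 37.3, 39.0 and 34.6 in sh3 and 34.3, 36.7 and 34.2 in shNC. The sh1 libraries lay far below the other 6, which overlapped. The level fell by 0.79 ± 0.06 in sh1 (1.73-fold lower, adjusted p = 5.1e-07), changed by 0.08 in sh3 without passing the test (adjusted p = 0.35), and was higher by 0.87 ± 0.06 in sh3 against sh1 (adjusted p = 7.3e-07). STX4, a widely expressed plasma membrane syntaxin, was also lower in sh1, with 33.0 ± 1.005 CPM against 39.4 ± 2.12 in shNC (log2 change -0.26, adjusted p = 0.006). STX2, the most abundant syntaxin here, was higher in sh1, with 73.1 ± 3.51 CPM against 61.4 ± 0.3 in shNC (log2 change 0.25, adjusted p = 0.0017). STX2 thus made up 58.0% of the summed syntaxin FPKM in sh1, 48.3% in sh3 and 47.5% in shNC, and STX3 made up 8.22% in sh1, 14.3% in sh3 and 13.8% in shNC. The neuronal STX1A and the STX11 of immune cells were not called in either comparison.

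In the SNAP family the called changes were small. SNAP29, a soluble SNAP that also acts in autophagosome fusion, had 65.4, 67.0 and 66.1 CPM in sh1, 66.4, 66.0 and 64.2 in sh3 and 69.6, 70.8 and 75.2 in shNC. The hairpin groups overlapped each other and lay below every shNC library, by a small margin. It fell by 0.12 ± 0.04 in sh1 (adjusted p = 0.029) and by 0.13 ± 0.04 in sh3 (adjusted p = 0.024), and these calls were lost in 6 and 5 of 15 alternatives, without shNC replicate 3 in both cases. The removal of any 1 library of its own hairpin group also ended each call, as did that of sh3 replicate 2 for sh1. PI4KA on the opposite strand, with a mean of 15155.2 counts where SNAP29 had 4291.1, shares 225 of the 4953 exon bases of SNAP29 and changed by -0.10 in sh1 (adjusted p = 0.038) and -0.12 in sh3 (adjusted p = 0.017). SNAP23, the non-neuronal counterpart of SNAP25, was lower in sh1, with 39.7 ± 3.68 CPM against 46.0 ± 0.519 in shNC (log2 change -0.21, adjusted p = 0.017), a call lost without sh1 replicate 2 or 3. In sh3 it had 40.8 ± 1.73 CPM and a log2 change of -0.17 (adjusted p = 0.061). SNAP23 shares its locus with LRRC57 on the opposite strand, which had a mean of 1400.7 counts where SNAP23 had 2668.2. SNAP25 had 4, 4 and 0 counts in sh1, 4, 13 and 26 in sh3 and 2, 4 and 13 in shNC, too few to show a difference.

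**Figure D5:**
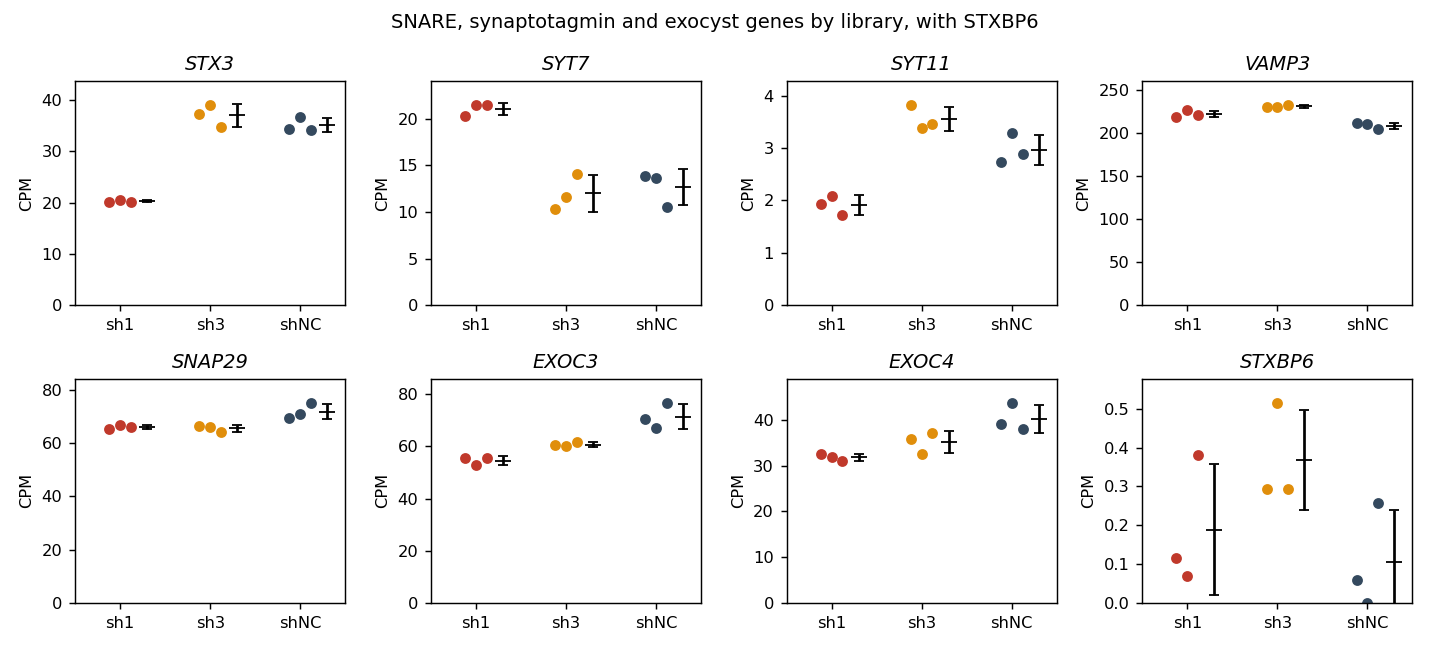
Level in CPM of SNARE, synaptotagmin and exocyst genes in each library of sh1, sh3 and shNC, with the group mean and SD beside the points (n = 3). STX3 sits at 20.2 to 20.6 CPM in sh1 and at 34.2 CPM or more in every other library, whereas VAMP3 differs by 0.15 or less on the log2 scale between hairpin and shNC libraries.

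Of the VAMPs, only VAMP3 was called in both comparisons. VAMP3 (ENSG00000049245, chromosome 1, 7771296 to 7781432, plus strand) had 218, 226 and 221 CPM in sh1, 230, 230 and 232 in sh3 and 211, 210 and 204 in shNC. Every hairpin library lay above every shNC library. It rose by 0.09 ± 0.03 in sh1 (adjusted p = 0.018), which was lost in 4 of 15 alternatives including the removal of sh1 replicate 2, and by 0.15 ± 0.03 in sh3 (adjusted p = 0.0015), which was lost in none. Neuronal-type VAMP1 was lower in sh1, with 8.16 ± 0.619 CPM against 11.5 ± 0.794 in shNC (log2 change -0.49, adjusted p = 0.0037), and its log2 change in sh3 was -0.13 (adjusted p = 0.46). VAMP8, the endosomal and granule VAMP of secretory epithelia, had 15.8 ± 0.963 CPM in sh3 and 19.3 ± 1.64 in shNC (log2 change -0.29, adjusted p = 0.04), a call lost in 7 of 15 alternatives and without any 1 of sh1 replicate 1, sh3 replicates 1 and 3, and shNC replicates 1 and 2. VAMP2 and VAMP7 were not called in either comparison.

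Among the syntaxin-binding proteins no gene was called in sh1 at an adjusted p under 0.05, where 38.7% of all tested genes were. In sh3 STXBP2, the Munc18 protein of cytotoxic and epithelial granules, was lower, with 48.4 ± 0.723 CPM against 54.6 ± 0.405 in shNC (log2 change -0.18, adjusted p = 0.0053). STXBP3, the Munc18 partner of STX4, was higher in sh3, with 68.8 ± 5.12 CPM against 61.8 ± 0.405 in shNC (log2 change 0.16, adjusted p = 0.035), a call lost without sh3 replicate 1 or any 1 shNC library. STXBP4 and STXBP5, also named tomosyn, were not called.

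Of the priming and disassembly factors UNC13B, NSF and NAPA were higher in sh1 and NAPG was lower in sh3. UNC13B, a Munc13 that readies SNAREs for fusion, averaged 118.7 ± 3.52 CPM in sh1, 92.6 ± 2.63 in sh3 and 98.3 ± 1.69 in shNC. It rose by 0.27 ± 0.03 in sh1 (adjusted p = 6.1e-05), while its log2 change in sh3 was -0.09 (adjusted p = 0.091). NSF, the ATPase that separates SNARE complexes, averaged 72.2 ± 2.46 CPM in sh1, 65.2 ± 0.725 in sh3 and 60.6 ± 2.83 in shNC, with a log2 change of 0.25 in sh1 (adjusted p = 0.00056) and 0.11 in sh3 (adjusted p = 0.096). NAPA, the alpha-SNAP adaptor of NSF, had a log2 change of 0.14 in sh1 (adjusted p = 0.029), lost in 7 of 15 alternatives and without sh1 replicate 2 or 3 or shNC replicate 1 or 2. NAPG, the gamma-SNAP, had a log2 change of -0.21 in sh3 (adjusted p = 0.02), lost without sh3 replicate 2 or 3 or shNC replicate 1. UNC13D, needed for granule release in immune cells, was not called.

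Of the 8 exocyst genes 2 were higher and 4 lower in sh1, beside 19.9% and 18.8% of all tested genes. In sh3 3 were lower, beside 12.4% of all tested genes. EXOC3 (ENSG00000180104, chromosome 5, 443175 to 471936, plus strand), the Sec6 subunit, had 55.5, 52.7 and 55.4 CPM in sh1, 60.4, 60.1 and 61.6 in sh3 and 70.5, 67.1 and 76.7 in shNC. The 3 groups did not overlap. It fell by 0.39 ± 0.05 in sh1 (adjusted p = 6.1e-05) and by 0.23 ± 0.05 in sh3 (adjusted p = 0.004). SLC9A3 and PP7080, both on the opposite strand, share 839 of its 8182 exon bases, or 10.3%. They changed in opposite directions, SLC9A3 by -0.51 in sh1 (adjusted p = 0.0018) and -0.42 in sh3 (adjusted p = 0.0095), and PP7080 by 0.97 in sh1 (adjusted p = 0.006) and 1.24 in sh3 (adjusted p = 0.0021).

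EXOC4 (ENSG00000131558, chromosome 7, 133253073 to 134066589, plus strand), the Sec8 subunit, had 32.5, 31.8 and 31.1 CPM in sh1, 35.7, 32.6 and 37.2 in sh3 and 39.1, 43.7 and 37.9 in shNC. Its shNC libraries lay above all hairpin libraries, but shNC replicate 3 and sh3 replicate 3 were close together. It fell by 0.34 ± 0.06 in sh1 (adjusted p = 0.0012) and by 0.19 ± 0.06 in sh3 (adjusted p = 0.043), the last lost in 11 of 15 alternatives and without any 1 sh1 library, sh3 replicate 1 or 2, or shNC replicate 1 or 2. EXOC2, the Sec5 subunit that binds the GTPase RAL, fell in sh3, with 70.1 ± 2.61 CPM against 84.3 ± 2.73 in shNC (log2 change -0.27, adjusted p = 0.00036), and had 79.2 ± 1.08 CPM in sh1 (log2 change -0.09, adjusted p = 0.09). EXOC7, the membrane-binding Exo70 subunit and the most abundant of the 8, was lower in sh1, with 215 ± 4.58 CPM against 240.2 ± 4.54 in shNC (log2 change -0.16, adjusted p = 0.00082), and had 244.6 ± 5.00 CPM in sh3. EXOC5 and EXOC8 were higher in sh1 by 0.24 (adjusted p = 0.00014) and 0.25 (adjusted p = 0.01). EXOC8 lies in a locus shared with SPRTN on the opposite strand, which had a mean of 1026.0 counts where EXOC8 had 1161.6. EXOC1, lower in sh1 by 0.16 (log2 change -0.16, adjusted p = 0.042), lost its call in 9 of 15 alternatives, and 7 of these left out 1 library, all but sh1 replicate 2 and shNC replicate 1. The 8 genes summed to 62.1 ± 0.782 FPKM in sh1, 64.5 ± 0.541 in sh3 and 68.1 ± 0.968 in shNC.

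Set against each other, the hairpin groups differed in 24 of the 43 genes, which is 55.8% beside 25.9% of all tested genes. The size of the differences did not exceed the background, with a median absolute log2 difference of 0.20 beside 0.22 over all tested genes. In sh3 13 were higher than in sh1 (30.2%, beside 12.9% of all tested genes) and 11 were lower (25.6%, beside 13%). An absolute log2 difference of at least 0.5 was called for 6 genes: STX3, SYT11, SYTL1 and RAB27B were higher in sh3, and RAB3B and SYT7 were lower. Those 6 are 14% of the members, and 7.89% of all tested genes passed the same rule. EXOC6, a Sec15 subunit, was called here and in no comparison with shNC, with 6.58 ± 0.451 CPM in sh3 and 8.97 ± 0.264 in sh1 (log2 change -0.45, adjusted p = 0.0058), and it averaged 7.66 ± 0.0552 CPM in shNC. SNAP47, of unsettled function, and VAMP7, a longin-domain VAMP, were likewise called higher in sh3 than in sh1 only, by 0.26 (adjusted p = 0.02) and 0.15 (adjusted p = 0.012). The SNAP47 call was lost without sh1 replicate 1 or sh3 replicate 2 or 3. SNAP47 shares its locus with JMJD4 on the opposite strand, which had a mean of 1634.2 counts where SNAP47 had 2639.9.

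Of 72 listed other regulators of exocytosis 60 were tested. In sh1 11 were higher (18.3%, beside 19.9% of all tested genes) and 17 lower (28.3%, beside 18.8%). In sh3 8 were higher (13.3%, beside 14.4%) and 15 lower (25%, beside 12.4%). With both hairpins 5 were higher (8.33%, beside 10.6%) and 10 lower (16.7%, beside 8.43%), so the counts of higher genes were near the background. Those with the largest changes shared by both hairpins included TNFAIP2, an exocyst-related protein, with a log2 change of -0.94 in sh1 and -0.63 in sh3. NAPB, the beta-SNAP, changed by -0.49 in sh1 (adjusted p = 7.7e-05) and -0.35 in sh3 (adjusted p = 0.0016). MADD, an exchange factor that activates RAB3 and RAB27, changed by -0.20 in sh1 and -0.31 in sh3. NAPEPLD, listed although it is an enzyme of N-acylethanolamine synthesis, changed by -0.83 and -0.58. In the other direction RAB8A, a GTPase of polarised secretion, changed by 0.37 in sh1 and 0.35 in sh3, ARF6 by 0.27 and 0.36, RALB by 0.20 and 0.26, and the recycling adaptor RAB11FIP5 by 0.36 with each hairpin. MLPH, melanophilin, a RAB27A effector that links melanosomes to myosin, rose by 0.35 in sh1 and 0.42 in sh3. A further list held 28 genes of Golgi and endosome traffic, intracellular SNAREs together with SNARE-binding regulators. Of these, 8 were higher and 6 lower in sh1 (28.6% and 21.4%, beside 19.9% and 18.8% of all tested genes). SCFD1, SCFD2, VPS45, VPS33A and VPS33B on this list are not SNAREs, and SCFD1, VPS45 and VPS33A were among the 8 higher genes. In sh3 4 were higher and 4 lower (14.3% each, beside 14.4% and 12.4%), near the background. With both hairpins 3 were higher (10.7%, beside 10.6% of all tested genes) and 3 lower (10.7%, beside 8.43%), near the background. GOSR2, YKT6 and SEC22C rose with both hairpins and STX6, STX17 and STX7 fell with both. Of these calls that of SEC22C in sh3 was lost in 12 of 15 alternatives and without any 1 shNC library, sh1 replicate 2 or 3, or sh3 replicate 1 or 2, and that in sh1 without sh1 replicate 2. The GOSR2 call in sh3 was lost without sh3 replicate 1 or 3 or shNC replicate 3, and the STX17 call in sh1 without sh1 replicate 3 or shNC replicate 1.

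Markers of other cell types were counted in the same libraries, and their part in the results above was not tested. Of 20 listed neuron and neuroendocrine markers 5 reached a mean of 1 FPKM, led by TUBB3 and CPE. Their summed level was 52.1 to 52.6 FPKM in sh1, 57.3 to 60.6 in sh3 and 36.1 to 43.5 in shNC, while the synaptic vesicle proteins SYP and SYN1 reached at most 0.185 and 0.136 FPKM. Of 12 leukocyte markers 1 reached 1 FPKM, the lysosomal CD68, and PTPRC, the pan-leukocyte antigen, reached at most 0.00297 FPKM. That list summed to 10.6 to 11.4 FPKM in sh1, 17.6 to 18.7 in sh3 and 13.9 to 15.1 in shNC. The 12 fibroblast and pericyte markers, 4 of them at 1 FPKM or more, summed to 21.0 to 22.1 FPKM in sh1, 16.0 to 17.2 in sh3 and 18.05 to 21.2 in shNC. The 10 endothelial markers, 3 of them at 1 FPKM or more, summed to 8.25 to 8.60 FPKM in sh1, 11.8 to 12.3 in sh3 and 10.9 to 12.3 in shNC.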

How the data were processed

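Per the labels' protocols, RNA was selected with oligo(dT) beads and made into dUTP-marked stranded libraries sequenced from both ends. The submitters' processing notes name HISAT2 2.2.1, StringTie 2.1.6, cutadapt 1.9, edgeR and DESeq2 and the build GRCh38, without roles. The table the authors deposited holds unnormalized whole-number counts per gene. It also holds FPKM, a length-scaled and depth-scaled level that the authors computed, per the file headers. Strand use in counting is unknown, which leaves overlapping genes uncertain.

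Counts were tested with edgeR 4.0.16 in R 4.3.3 (glmQLFTest after glmQLFit, TMM factors, filterByExpr with its minimum count set to 10), fitting all 9 libraries with 1 mean for each group, two-sided, and Benjamini-Hochberg adjustment over all tested genes. The standard error was the absolute log2 fold change divided by the square root of F. CPM used TMM-scaled totals, except for STXBP6, whose CPM in the text and exact permutation test used library totals. The STXBP6 panel in the figure of SNARE, synaptotagmin and exocyst genes used TMM-scaled totals. A floor of 3 counts is 0.0433 to 0.052 CPM and is a limit of counting alone, as PCR copies of a molecule are not independent. No 2 replicates of a group agreed within sampling noise, with chi-square values per degree of freedom of 9.01 to 18.9, the highest in pairs with shNC replicate 3. The 15 alternatives comprised DESeq2 1.42.0 and its own size factors, library totals, no filter, a replicate block, limma 3.58.1 on log2(FPKM + 1) or log2(FPKM + 0.1), and the removal of each library.

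The members and lists were chosen with earlier results of these data known. Members called with both hairpins, or called with an absolute log2 change of at least 0.5, in either hairpin or between them were written out by library; from the other lists the genes at 1 FPKM or more that were called in one direction with both hairpins were named, up to 5 higher and 5 lower by the smaller of the 2 changes. One gene that this rule names is not reported here. Promoter sequences and starts come from RefSeq (GRCh38.p14), and exon overlaps from GENCODE 29. The edgeR test was checked on simulated data.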

Additional observations from a re-analysis of the deposited data

Results flagged for a closer look

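RAB3B, the granule GTPase, moved in opposite directions with the 2 hairpins, and this difference was itself tested. Its level was 17.0 ± 0.688 CPM in sh3 and 37.9 ± 0.255 in sh1, with 23.7 ± 0.561 in shNC (SD, n = 3 each). The effect of sh3 minus that of sh1 was -1.15 on the log2 scale (edgeR's quasi-likelihood test, adjusted p = 6e-08), and all 3 sh3 libraries lay below and all 3 sh1 libraries above every shNC library. The groups hold 3 libraries each, so no test for a single outlying library was made.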

How the results depend on the processing

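Of 1920 gene results under alternatives (128 gene and comparison pairs with 15 alternatives each), 1753 kept their direction and side of the threshold, 155 lost a call, 5 gained one and 7 turned sign. The sign turns were small: SNAP29 in sh3 against sh1 was 0.02 with limma on log2(FPKM + 1) or log2(FPKM + 0.1) and 0.00 without sh3 replicate 3, against -0.01, with -0.02 to 0.00 as libraries were left out. SYT7 in sh3 against shNC was 0.02 without sh3 replicate 1 (range -0.21 to 0.02), and SYTL3 in sh3 against shNC was -0.01 with library totals in place of TMM or without sh3 replicate 2 or 3 (range -0.01 to 0.07). STXBP6 in sh1 was -0.15 without sh1 replicate 3 and ranged from -0.15 to 2.60 as libraries were left out, against 0.87; in sh3 it ranged from 1.22 to 3.54, and without shNC replicate 3 the 3.54 was called (adjusted p = 0.046). In sh3 against sh1 it ranged from 0.55 to 1.97.

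Leaving out each library gave 7195 to 8194 genes called in sh1, 4690 to 5925 in sh3 and 4312 to 5996 in sh3 against sh1. Of the members 7 to 11 were higher and 14 to 17 lower in sh1, 1 to 3 higher and 8 to 12 lower in sh3, and 8 to 13 higher and 8 to 11 lower in sh3 against sh1. Both hairpins called 4 to 9 members in one direction. Only 1 member was higher in sh3 with library totals or with no filter on low counts, and 8 were lower and 5 were called with both hairpins with no filter; the cause was not tested.

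The replicate numbers did not pair the libraries: correlations of same-numbered deviations were -0.0319 to 0.0207, and 0 of 9 libraries correlated best with their own number. With the replicate block 7951, 5446 and 5125 genes were called in sh1, sh3 and sh3 against sh1. Members called under the block were 9 higher and 15 lower in sh1, 2 and 9 in sh3, and 12 and 10 in sh3 against sh1, with 6 in both hairpins. Depth limits STXBP6, SNAP25 and STX19, each at 31 counts or fewer per library.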

Other observations

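CHGA, chromogranin A, a core protein of dense secretory granules, was on the neuron and neuroendocrine list and is named after its values were seen. It averaged 2.23 ± 0.227 CPM in sh1, 3.33 ± 0.716 in sh3 and 9.06 ± 3.64 in shNC (SD, n = 3 each). Its log2 change was -2.02 in sh1 (edgeR, adjusted p = 0.00015) and -1.44 in sh3 (adjusted p = 0.0024), and both calls held in all 15 alternatives, with log2 changes of -2.32 to -1.13 in sh1 and -1.74 to -0.86 in sh3. CHGA was the only gene of its list called lower with both hairpins. TUBB3, a neuronal tubulin, was higher with both, by 0.67 in sh1 (adjusted p = 1.5e-06) and 0.95 in sh3 (adjusted p = 2.9e-07), and so was ENO2, the neuronal enolase, by 0.39 (adjusted p = 0.00083) and 0.43 (adjusted p = 0.00076). CPE, a granule carboxypeptidase, was higher in sh1 by 0.37 (adjusted p = 0.00027). UCHL1 changed by -0.72 in sh1 (adjusted p = 0.0097) and 1.35 in sh3 (adjusted p = 0.00022), and SNAP91 by -0.59 in sh3 (adjusted p = 0.014). Of the 14 tested genes of the list 21.4% were higher and 14.3% lower in each comparison with shNC. Over all tested genes these shares were 19.9% and 18.8% in sh1 and 14.4% and 12.4% in sh3. RPH3AL, also called Noc2, an effector of RAB3 and RAB27, averaged 2.84 ± 0.391 CPM in sh1, 3.21 ± 0.177 in sh3 and 5.40 ± 0.104 in shNC. It changed by -0.93 in sh1 (adjusted p = 0.00023) and -0.75 in sh3 (adjusted p = 0.0018). EXOC6B, the paralog of EXOC6, averaged 63.5 ± 2.92 CPM in sh1, 65.8 ± 3.07 in sh3 and 75.7 ± 0.627 in shNC, a log2 change of -0.25 in sh1 (adjusted p = 0.00076) and -0.20 in sh3 (adjusted p = 0.0059). RPH3AL and EXOC6B were chosen after their values were seen too.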
